A study of Mus musculus with 33 samples.

Results

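A set of 8 noncoding RNAs that form the core of RNA-protein machines was followed across sorted blood stem and progenitor cells of old mice. They are the RNAs of RNase MRP (Rmrp) and RNase P (Rpph1), both copies of the 7SL RNA of the signal recognition particle (Rn7s1, Rn7s2), telomerase RNA (Terc), a vault RNA (Vaultrc5) and the Y RNAs of the Ro particle (Rny1, Rny3). They were chosen by symbol, as 8 of the 55376 gene symbols counted in every library, and all 8 were found. Sorted cells were hematopoietic stem cells (HSCs), progenitors of lymphoid cells (CLPs) and progenitors of granulocytes and monocytes (GMPs), and they came from the bone marrow of old C57BL/6 males, 24 to 29 months of age. O-WT mice were untreated. O-NR mice had nicotinamide riboside (NR), a precursor of NAD+, in their drinking water for 4 to 6 weeks, and O-NR-RC mice were then kept for 2 months without it. In cohort 2 each of the 3 cell types has 4 O-WT and 4 O-NR libraries, 24 together. Cohort 1 has only HSCs, with 2 libraries from untreated, 4 from O-NR and 3 from O-NR-RC mice. HSCs were gated as Lin-cKit+Sca1+CD34-Flk2-CD150+ cells and CLPs as Lin-IL-7Rα+Flk2+ cells. A label field calls the GMPs common myeloid progenitors, while their titles call them GMPs, the name used here. The study asked how NR changes the transcriptome, and the sorted fractions also allow the RNAs to be compared between cell types. No source says that libraries of a group came from separate mice, so p-values measure the spread between these samples, which may be technical.

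These RNAs are short, mostly lack a poly(A) tail and are made by RNA polymerase III, except telomerase RNA, which RNA polymerase II makes in mammals. RNase P trims the 5′ ends of tRNA precursors, RNase MRP cuts precursors of ribosomal RNA, and the signal recognition particle brings ribosomes that make secreted or membrane proteins to the endoplasmic reticulum. Telomerase copies part of its RNA onto chromosome ends, vaults are large hollow cytoplasmic particles, and the Ro protein binds Y RNAs and misfolded noncoding RNAs. Total RNA libraries can hold such transcripts, although fragmentation and size selection leave short RNAs with few reads, so levels are compared between samples for each RNA.

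The Y RNAs are shown first because Rny3 was lower in both progenitors than in HSCs, and Rny1 is shown beside it. In mm10 (GRCm38), Rny1 lies at chr6:47788069-47788180 on the minus strand and Rny3 at chr6:47781624-47781725 on the plus strand, both as single exons annotated as miscellaneous RNA. In a global alignment, 81 of 112 columns were identical (72.3%). Capitals mark the 3 stretches of 8 or more bases that both share in the same order, 28 bases in all, the longest of 12 bases. The sequences are those of the Gencode M21 transcripts.
Rny1: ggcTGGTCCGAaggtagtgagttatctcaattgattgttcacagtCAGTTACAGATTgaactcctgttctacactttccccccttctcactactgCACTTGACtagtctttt
Rny3: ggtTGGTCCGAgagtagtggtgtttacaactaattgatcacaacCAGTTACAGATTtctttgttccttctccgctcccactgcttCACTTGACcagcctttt

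Rmrp is shown because 124 of its 271 bases (45.8%), in capitals, also lie in an exon of Ccdc107 on the opposite strand. The gene lies at chr4:43492788-43493058 on the minus strand, and the annotation holds a longer lincRNA of 281 bases under the same symbol.
Rmrp: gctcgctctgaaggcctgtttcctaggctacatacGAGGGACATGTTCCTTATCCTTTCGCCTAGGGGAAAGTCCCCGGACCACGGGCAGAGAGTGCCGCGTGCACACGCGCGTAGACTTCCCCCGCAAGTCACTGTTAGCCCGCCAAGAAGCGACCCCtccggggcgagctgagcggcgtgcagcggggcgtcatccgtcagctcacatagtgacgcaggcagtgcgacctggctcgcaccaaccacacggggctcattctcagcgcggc

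The first 90 bases of Terc, chr3:96414770-96414859 on the minus strand, are shown for the template that telomerase copies. The whole RNA of 423 bases lies at chr3:96414437-96414859. Capitals mark the longest stretch, bases 28 to 36, that matches the complement of the mouse telomere repeat.
Terc: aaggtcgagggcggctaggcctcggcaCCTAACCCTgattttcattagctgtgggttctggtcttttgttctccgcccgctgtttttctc

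Rpph1, with 319 bases at chr14:50807449-50807767 on the minus strand, shares 233 of them (73%) with a same-strand exon of Ccnb1ip1. Rn7s1 and Rn7s2, both on chromosome 12, were identical at 300 of 300 bases, so a read inside them fits both equally. In each of them, 70 and 77 bases also lie in annotated miRNA genes on the same strand. Vaultrc5 is an RNA of 143 bases on the plus strand of chromosome 18. The sources do not say whether counting used strand or how reads with several places or genes were treated. The split between Rn7s1 and Rn7s2, and between overlapping genes, is therefore uncertain. If such reads were left out, the levels of these RNAs rest on the reads that remained.

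Reads counted on genes ranged from 8897256 to 23816042 per library in cohort 1, and in cohort 2 from 8434214 to 14479453 in HSCs, 4792380 to 12058957 in CLPs and 11755798 to 18213674 in GMPs. The sorted fractions carried the markers of their names. In O-WT, 6 of 6 HSC markers were lower in CLPs and in GMPs than in HSCs, 6 of 6 CLP markers were higher in CLPs and 6 of 6 GMP markers higher in GMPs, although some are the genes of the gates (Slamf1, Il7r, Flt3). Libraries also held reads of genes that mark other blood cells, some of which CLPs may use themselves: the sum of 8 plasma and B cell markers was 591 to 826 CPM in O-WT CLPs against 77.2 to 735 CPM in O-WT HSCs, and the sum of 7 neutrophil markers 53.3 to 182 against 10.9 to 18 CPM, with no marker of either list at 0. Libraries also differed in reads on 1971 olfactory and vomeronasal receptor genes, which blood cells are not known to use. Their sum was 1502 to 4671 CPM in O-WT HSCs, 2700 to 8303 CPM in O-WT CLPs and 858 to 2376 CPM in O-WT GMPs, and in cohort 1 4 libraries reached 14277 to 15260 CPM. Olfactory reads enter some fits below as a covariate or as a reason to leave out libraries, which cannot fully separate them from cell type. Whether these other reads cause any result was not tested, and their values are given beside the results they move with. CPM in these sums are counts scaled to the library's total of counted reads. CPM of single genes below are also scaled by the library's TMM factor from edgeR.

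The 8 RNAs together took 0.157 to 0.236% of reads in O-WT HSCs, 0.0977 to 0.165% in O-WT CLPs and 0.118 to 0.162% in O-WT GMPs of cohort 2. Per length, Rmrp was far above the others in O-WT HSCs, with 6410 ± 2426 CPM per kb (SD, n = 4). Vaultrc5 followed with 322 ± 123 and Rny3 with 299 ± 89.2 CPM per kb, which did not differ beyond their spread. The remaining levels were 75.2 ± 28.4 CPM per kb for Rn7s2, 49.7 ± 14.8 for Rny1, 43.3 ± 18.1 for Rn7s1, 37.5 ± 15.8 for Rpph1 and 25.7 ± 11.1 for Terc, and neighbours in that order differed by less than the larger of their SDs. Behind these levels stood between 4342 and 28145 reads for Rmrp in a cohort 2 library, but only 5 to 92 for Rny1 and 7 to 197 for Rpph1, so the last 2 carry the largest counting error. The full annotated length was used. Reads on bases shared with another gene may not have been counted, so the place of Rn7s1, Rn7s2 and Rpph1 in this order is uncertain.

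**Figure D1:**
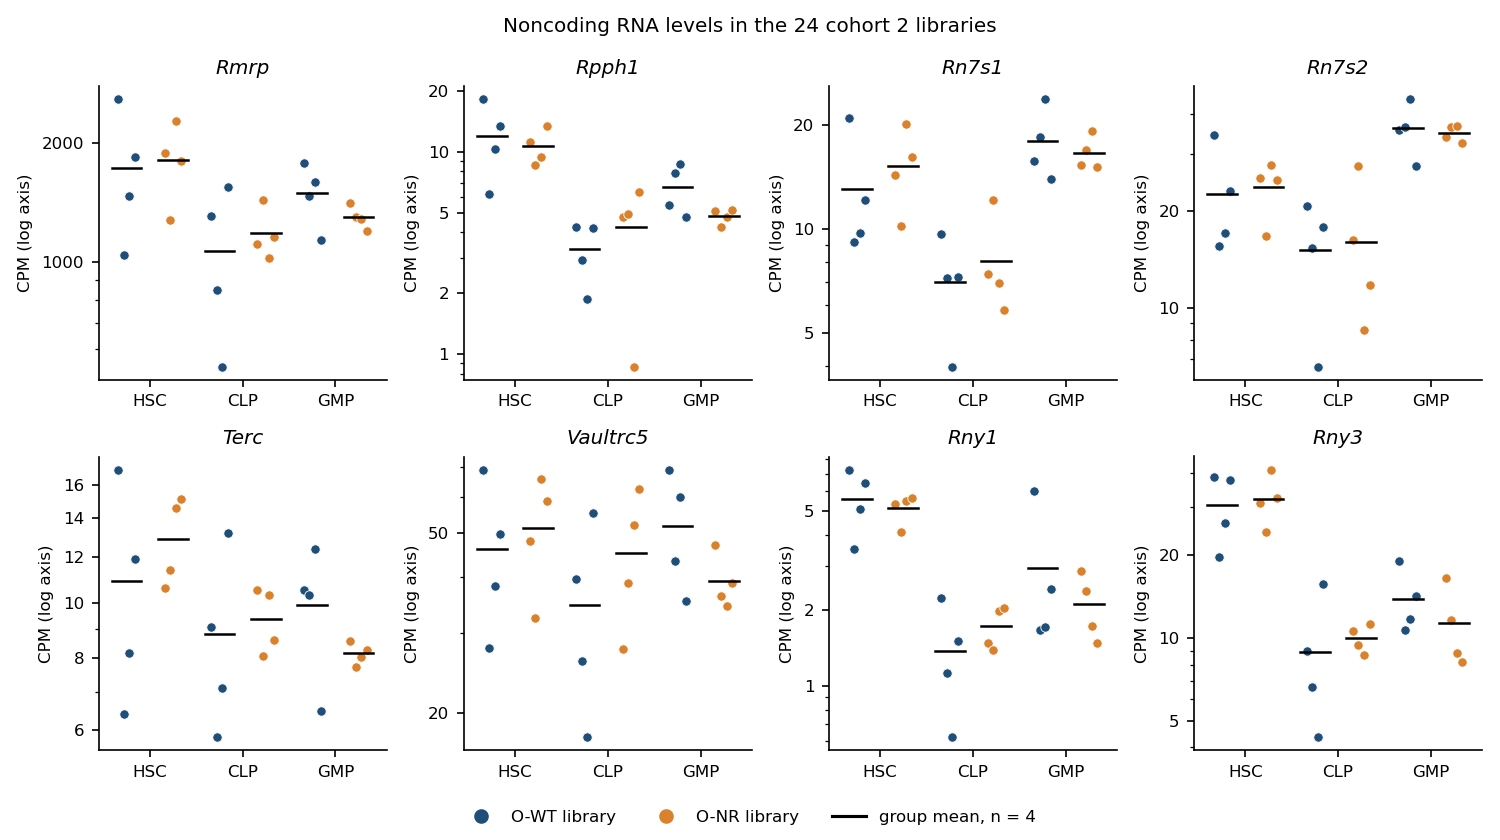
CPM of each noncoding RNA (log axis) in the 24 libraries of cohort 2, by cell type, with O-WT libraries in blue, O-NR libraries in orange and bars at the mean of 4 libraries. Rny1, Rny3 and Rpph1 were highest in HSCs, with O-WT means of 5.57, 30.5 and 12 CPM, while Rn7s2 was highest in GMPs with 36 CPM.

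Cell types were tested in edgeR's quasi-likelihood fit of the 24 libraries, with p-values adjusted over all 22573 genes tested by the Benjamini-Hochberg method and a call at an adjusted p below 0.05. All 8 RNAs passed the filter of more than 3 CPM in at least 4 libraries, but Rny1 did so through the HSCs, with 8 of 8 HSC, 0 of 8 CLP and 1 of 8 GMP libraries over 3 CPM. In O-WT CLPs against HSCs, 5 of 8 RNAs were lower and 0 higher, where 26% of all genes were called and 16.7% were lower. The median log2 fold change was -0.79 over the 8 RNAs and 0.11 over all genes tested. In O-WT GMPs against HSCs, 3 were lower and 1 higher (38.5% of all genes called), with medians of -0.17 and -0.32. With RLE scaling and with DESeq2 (8429 and 8765 of all 22573 genes called) the balance there turned to 2 higher and 1 lower. The median over the 8 RNAs was then 0.06, so no direction is given for them together. In O-WT GMPs against CLPs, 5 were higher and 0 lower (56.2% of all genes called, 24.1% higher), with medians of 0.81 and -0.42. In O-NR, 4 RNAs were lower in CLPs than in HSCs (30.2% of all genes called), 4 lower in GMPs than in HSCs (33.7% called) and 2 higher in GMPs than in CLPs (37.1% called). Without Rny1, which had to be higher in HSCs to pass, 4 of 7 RNAs were lower in O-WT CLPs than in HSCs (median -0.71) and 3 of 7 in O-NR (-0.62). In GMPs against HSCs, 2 of 7 were then lower and 1 higher in O-WT (-0.13), and 3 of 7 lower in O-NR (-0.48). Against CLPs, 4 of 7 were higher in O-WT GMPs (0.62) and 2 of 7 in O-NR GMPs (0.17). Olfactory receptor reads as a covariate were an alternative chosen after the data were seen. GMPs against CLPs then had 0 calls in O-WT (4586 of all genes called) and 2 lower and 0 higher in O-NR (5296 called). Olfactory sums of CLPs and GMPs did not overlap (2700 to 8303 against 858 to 2376 CPM in O-WT, 2115 to 4960 against 1525 to 1987 CPM in O-NR). That fit cannot fully separate such reads from cell type, so no direction is drawn from it. Scaling with edgeR's RLE factors in place of TMM moved the median of all genes in GMPs against HSCs of O-WT from -0.32 to -0.12 and in GMPs against CLPs from -0.42 to -0.21, so the differences that involve GMPs are relative to that shift.

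Of the Y RNAs, Rny3 fell in both progenitors. Rny3, the more abundant of them, stood at 38.6, 19.7, 26.3 and 37.5 CPM in the 4 O-WT HSC libraries, at 8.96, 6.63, 4.36 and 15.7 CPM in O-WT CLPs and at 19, 10.7, 11.7 and 14.2 CPM in O-WT GMPs. Every CLP and every GMP library lay below every HSC library. Rny3 was 3.37-fold lower in CLPs than in HSCs (log2 fold change -1.75 ± 0.26 SE, edgeR adjusted p = 2.07e-07) and 2.2-fold lower in GMPs (-1.14 ± 0.25, edgeR adjusted p = 0.000203). In a bulk library, fewer cells of a type and less RNA per cell cannot be told apart.

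The O-NR mice gave the same contrast in other libraries. There Rny3 was at 30.9, 24.3, 40.9 and 32.3 CPM in HSCs, 10.6, 9.45, 8.69 and 11.2 CPM in CLPs and 16.5, 11.6, 8.83 and 8.17 CPM in GMPs, again without overlap with the HSCs. Its log2 fold change against HSCs was -1.68 ± 0.26 in CLPs (edgeR adjusted p = 4.48e-07) and -1.51 ± 0.26 in GMPs (edgeR adjusted p = 2.41e-06). All of these Rny3 calls held under the 9 other settings and without any single library.

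Rny1 had lower values in CLPs too, in a test that its filter favoured, since it passed through the HSCs. Its level was 7.27, 3.5, 5.05 and 6.46 CPM in O-WT HSCs, 2.24, 1.12, 0.623 and 1.51 CPM in O-WT CLPs and 5.99, 1.67, 1.72 and 2.43 CPM in O-WT GMPs. The CLP libraries lay below all HSC libraries, while GMP replicate 1 lay among the HSCs. Rny1 was 3.99-fold lower in CLPs than in HSCs of O-WT (log2 fold change -2 ± 0.41, edgeR adjusted p = 8.37e-05) and 2.97-fold lower in O-NR (-1.57 ± 0.40, edgeR adjusted p = 0.00154), and both differences were also called without a filter. In GMPs the log2 fold change was -0.91 ± 0.37 in O-WT (edgeR adjusted p = 0.0476) and -1.26 ± 0.39 in O-NR (edgeR adjusted p = 0.00732). The O-WT call in GMPs was lost in 6 of 9 other settings, where the value was -0.71 to -0.89, and without HSC replicate 1, 3 or 4 or GMP replicate 2, 3 or 4, where it was -0.66 to -0.96. The O-NR call was lost without GMP replicate 4 (-1.03).

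In O-WT GMPs against CLPs both Y RNAs were higher, Rny1 by 1.08 ± 0.41 (edgeR adjusted p = 0.0237) and Rny3 by 0.62 ± 0.26 (edgeR adjusted p = 0.0417). With olfactory reads as a covariate the values were 0.67 and 0.01 and neither was called, and without the libraries richest in such reads they were 0.65 and 0.14. Single libraries also ended these calls, for Rny1 CLP replicate 2 or 3 or GMP replicate 1 (0.57 to 0.98) and for Rny3 CLP replicate 1, 2 or 3 or GMP replicate 1 (0.38 to 0.61). In O-NR the values were 0.31 ± 0.41 for Rny1 and 0.18 ± 0.26 for Rny3, neither of them called (edgeR adjusted p = 0.553 and 0.60).

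Levels of the Y RNAs moved together (r = 0.94 over the 24 libraries of cohort 2). Group means there were 16.2 to 19.8 Rny1 reads per 100 Rny3 reads, but single libraries ran from 9.63 to 31.6, on few Rny1 reads. Of the proteins that hold the Y RNAs, Ro60, which binds them, was also lower outside HSCs. Its log2 fold change was -1.77 ± 0.21 in O-WT CLPs (edgeR adjusted p = 2.41e-10) and -2.12 ± 0.21 in O-WT GMPs (edgeR adjusted p = 6.05e-13). Ssb, the La protein that binds the ends of new RNA polymerase III transcripts, was -0.07 ± 0.23 in CLPs (edgeR adjusted p = 0.851) and rose by 0.98 ± 0.23 in GMPs (edgeR adjusted p = 0.000461). The nearest protein-coding gene, Pdia4, an endoplasmic reticulum chaperone, was 7961 bases from Rny1 and 14416 bases from Rny3. Its log2 fold change against HSCs was 0.25 ± 0.24 in CLPs (edgeR adjusted p = 0.477) and 2.30 ± 0.25 in GMPs (edgeR adjusted p = 3.23e-11), so it did not follow the Y RNAs.

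The RNase P RNA was lower in CLPs, while the RNase MRP RNA differed less. Rpph1 had 18.1, 6.15, 10.3 and 13.3 CPM in O-WT HSCs, 4.26, 2.92, 1.87 and 4.2 CPM in O-WT CLPs and 5.45, 7.86, 8.7 and 4.76 CPM in O-WT GMPs. All 4 CLP libraries lay below the HSCs and below the GMPs, and 2 of 4 GMP libraries lay below all HSCs. Rpph1 was 3.57-fold lower in CLPs than in HSCs of O-WT (log2 fold change -1.84 ± 0.34, edgeR adjusted p = 1.32e-05) and 2.49-fold lower in O-NR (-1.32 ± 0.33, edgeR adjusted p = 0.00122), and both calls held under the 9 other settings and without any single library.

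Rpph1 in GMPs against HSCs changed by -0.83 ± 0.31 in O-WT (edgeR adjusted p = 0.0301) and by -1.15 ± 0.32 in O-NR (edgeR adjusted p = 0.00339). The O-NR call held under every setting tried. The O-WT call was lost in 6 of 9 other settings, where the value was -0.59 to -0.76, among them RLE scaling (-0.59), DESeq2 (-0.59) and the replicate block (-0.74), and without HSC replicate 1 or 4 or GMP replicate 1, 2 or 4 (-0.57 to -0.87). Between GMPs and CLPs, Rpph1 was higher in GMPs of O-WT by 1.00 ± 0.34 (edgeR adjusted p = 0.0118), a call lost without CLP replicate 3 (0.79), without the libraries richest in olfactory reads (0.65) and with those reads as a covariate (0.09), and by 0.17 ± 0.34 in O-NR (edgeR adjusted p = 0.695).

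Rmrp had 2590, 1040, 1471 and 1848 CPM in O-WT HSCs, 1307, 846, 541 and 1553 CPM in O-WT CLPs and 1779, 1470, 1593 and 1138 CPM in O-WT GMPs, and all 3 groups overlapped. It was 1.64-fold lower in O-WT CLPs than HSCs (log2 fold change -0.71 ± 0.27, edgeR adjusted p = 0.0457). That call was lost in 5 of 9 other settings (-0.34 to -0.74) and without HSC replicate 1 or 4 or CLP replicate 2 or 3 (-0.45 to -0.68). In O-NR the value was -0.62 ± 0.27 (edgeR adjusted p = 0.0779). In GMPs against HSCs it was -0.22 ± 0.27 in O-WT (edgeR adjusted p = 0.532), but 0.02 with RLE scaling and with DESeq2, so no direction is given.

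The number of Rpph1 reads per 100 Rmrp reads, which does not depend on scaling between libraries, was 0.591 to 0.721 in O-WT HSCs, 0.271 to 0.345 in O-WT CLPs and 0.306 to 0.546 in O-WT GMPs. The HSC values lay above those of both progenitors. In O-NR it was 0.414 to 0.743 in HSCs, 0.0851 to 0.55 in CLPs and 0.326 to 0.428 in GMPs, and the groups overlapped. Both RNAs work with nearly the same proteins, and of 11 such proteins 10 were tested. In O-WT CLPs against HSCs 0 passed edgeR's test and 3 had an unadjusted p below 0.05. In O-WT GMPs 3 rose against HSCs, where 18.6% of all genes were higher, and 5 rose against CLPs, where 24.1% were. Pop1, the largest shared subunit, rose by 1.48 ± 0.21 in GMPs against HSCs (edgeR adjusted p = 4.13e-08) and Pop4 by 0.91 ± 0.22 (edgeR adjusted p = 0.00047). Against HSCs, CLPs had values of -0.52 ± 0.23 for Rpp14 (edgeR adjusted p = 0.0856) and -0.67 ± 0.30 for Rpp38 (edgeR adjusted p = 0.0883).

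Genes that overlap these RNAs behaved differently from each other. Ccdc107, on the strand opposite to Rmrp, was lower in O-WT CLPs than HSCs by a log2 fold change of -1.32 ± 0.25 (edgeR adjusted p = 2.34e-05) and had 39.1 to 104 CPM in O-WT HSCs against 1040 to 2590 CPM for Rmrp. Reads from both strands in the shared 124 bases cannot be told apart if counting ignored strand. Ccnb1ip1, which shares bases with Rpph1, had 0.05 ± 0.56 in CLPs (edgeR adjusted p = 0.953) and -0.79 ± 0.56 in GMPs (edgeR adjusted p = 0.264).

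The 7SL RNAs had their highest levels in GMPs. Rn7s2 stood at 34.4, 15.6, 17.1 and 23.1 CPM in O-WT HSCs, 20.8, 15.4, 6.61 and 17.8 CPM in O-WT CLPs and 35.5, 36.5, 44.3 and 27.5 CPM in O-WT GMPs. All GMP libraries lay above all CLP libraries, and 3 of 4 lay above all HSCs. Rn7s1 had 20.9, 9.14, 9.74 and 12.1 CPM in O-WT HSCs, 9.64, 7.19, 3.99 and 7.23 CPM in O-WT CLPs and 15.7, 18.4, 23.7 and 13.9 CPM in O-WT GMPs, again with GMPs above CLPs throughout. Since the genes are identical, the split of 158 to 211 Rn7s2 reads per 100 Rn7s1 reads (group means of cohort 2) is uncertain. Their total is uncertain too, as reads with several places may have been left out.

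Against O-WT CLPs, GMPs were higher in Rn7s1 by 1.35 ± 0.26 on the log2 scale (edgeR adjusted p = 3.68e-05) and in Rn7s2 by 1.24 ± 0.26 (edgeR adjusted p = 0.000134). In O-NR the values were 1.03 ± 0.26 (edgeR adjusted p = 0.00154) and 1.11 ± 0.26 (edgeR adjusted p = 0.000739). These 4 calls held without any single library and in 8 of 9 other settings. They were lost with olfactory receptor reads as a covariate, where the values fell to 0.46 and 0.20 in O-WT and to 0.46 and 0.46 in O-NR. Across the 24 libraries the log2 level of Rn7s2 had r = -0.94 with the log2 olfactory sum and Rn7s1 had r = -0.90, the strongest of the 8 RNAs. Within groups r was -0.88 and -0.83, and Rmrp also had -0.88. All 8 were negative there, the weakest being Rny1 at -0.33. Points over all 24 libraries share cell type and depth, and those within groups may share depth.

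Against HSCs, Rn7s2 was higher in O-WT GMPs by 0.67 ± 0.26 (edgeR adjusted p = 0.0314), a call lost with the same covariate (0.06) and without HSC replicate 3 (0.56) or 4 (0.68). In O-NR all 4 GMP libraries lay above the HSCs, with a value of 0.56 ± 0.26 that missed the threshold (edgeR adjusted p = 0.0875) but was called in 5 of 9 other settings (0.56 to 0.72). For Rn7s1 the value in GMPs was 0.47 ± 0.25 in O-WT (edgeR adjusted p = 0.129) and 0.13 ± 0.25 in O-NR (edgeR adjusted p = 0.752), and the first was called with RLE scaling or DESeq2 (0.71). For Rn7s2 in CLPs it was -0.57 ± 0.26 in O-WT (edgeR adjusted p = 0.105). Rn7s1 was lower in CLPs than HSCs, by -0.88 ± 0.26 in O-WT (edgeR adjusted p = 0.00799) and -0.90 ± 0.26 in O-NR (edgeR adjusted p = 0.00539). The O-WT call was lost without HSC replicate 1 (-0.56) or CLP replicate 3 (-0.68) and with the covariate (-0.50), and the O-NR call without the libraries richest in olfactory reads (-0.62).

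The proteins of the signal recognition particle and its receptor were also higher in GMPs. Of 9 tested, 8 rose against HSCs and 9 against CLPs in O-WT, with medians of 0.95 and 1.26 where all genes had -0.32 and -0.42. Of all genes, 18.6% were higher against HSCs and 24.1% against CLPs. Srp68 rose by 1.68 ± 0.22 (edgeR adjusted p = 7.18e-09) and Srp19 by 1.61 ± 0.23 (edgeR adjusted p = 3.12e-08) in GMPs against HSCs, and both bind the 7SL RNA. In CLPs against HSCs 2 of 9 fell, where 16.7% of all genes were lower. These were the receptor subunit Srpr, by -0.56 ± 0.21 (edgeR adjusted p = 0.0387), and Srp14, of the domain that slows translation, by -0.61 ± 0.23 (edgeR adjusted p = 0.0417). Of the nearest coding genes, the ribosomal protein gene Rps29, 109 bases from Rn7s1, was 0.47 ± 0.23 in GMPs against HSCs (edgeR adjusted p = 0.103), and Nemf, 4017 bases from Rn7s2, rose by 0.57 ± 0.20 (edgeR adjusted p = 0.0217).

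Telomerase RNA differed little. Terc ranged from 6.41 to 17 CPM in O-WT HSCs, 5.84 to 13.2 CPM in CLPs and 6.47 to 12.4 CPM in GMPs, with overlap throughout. Against HSCs of O-WT its log2 fold change was -0.29 in CLPs (95% interval -0.81 to 0.22, edgeR adjusted p = 0.422) and -0.13 in GMPs (-0.64 to 0.38, edgeR adjusted p = 0.70), the latter 0.11 with RLE scaling and with DESeq2. In O-NR, Terc had 10.6, 11.4, 14.6 and 15.1 CPM in HSCs, above the 8.57, 7.74, 8.05 and 8.27 CPM in GMPs and the 10.5, 8.06, 10.3 and 8.61 CPM in CLPs. The GMP difference was called (-0.66 ± 0.26, edgeR adjusted p = 0.0386), but the call was lost in 4 of 9 other settings (-0.51 to -0.57) and in 7 of 8 fits that left out a library (-0.55 to -0.61), all but that without HSC replicate 1. The CLP difference of -0.47 ± 0.26 was not called (edgeR adjusted p = 0.169).

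Several telomerase proteins were higher in GMPs. Of 8 tested, 5 rose and 1 fell against HSCs of O-WT, where 18.6% of all genes were higher and 20% lower. In CLPs 0 passed edgeR's test and 1 had an unadjusted p below 0.05. The reverse transcriptase Tert fell by -1.74 ± 0.24 in GMPs (edgeR adjusted p = 1.5e-08), and Nhp2, which binds the RNA's stability domain, rose by 1.54 ± 0.23 (edgeR adjusted p = 8.28e-08). Tert had -0.45 ± 0.23 in CLPs (edgeR adjusted p = 0.141) and Parn, which trims the RNA's end, -0.44 ± 0.20 (edgeR adjusted p = 0.111). Of 7 shelterin proteins, which cover telomeres, Tinf2 rose by 0.58 ± 0.19 (edgeR adjusted p = 0.0186) and Terf2ip fell by -0.57 ± 0.20 (edgeR adjusted p = 0.0305) in CLPs against HSCs, and Acd, which recruits telomerase, rose by 0.55 ± 0.20 in GMPs (edgeR adjusted p = 0.0256).

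The vault RNA did not pass edgeR's test between any cell types, while its main proteins fell outside HSCs. Vaultrc5 ranged from 27.9 to 68.8 CPM in O-WT HSCs, 17.7 to 55.4 CPM in CLPs and 35.4 to 68.9 CPM in GMPs. Its log2 fold change against HSCs was -0.41 in CLPs (95% interval -0.93 to 0.12, edgeR adjusted p = 0.262) and 0.17 in GMPs (-0.35 to 0.69, edgeR adjusted p = 0.608), and 0.58 in GMPs against CLPs (0.05 to 1.10, edgeR adjusted p = 0.0547). The last passed in 6 other settings, the replicate block among them (0.65), and was -0.13 with the olfactory covariate. In O-NR the signs differed, with -0.39 in GMPs against HSCs (95% interval -0.91 to 0.13, edgeR adjusted p = 0.28) and -0.21 in GMPs against CLPs (-0.73 to 0.31, edgeR adjusted p = 0.522). Both were called lower with the covariate (-0.59 and -0.79), and the first also in a fit of only the libraries compared (-0.34), so no direction is given for Vaultrc5. Of 3 vault proteins, the major vault protein Mvp fell by -1.52 ± 0.21 in CLPs (edgeR adjusted p = 3.92e-08) and -0.90 ± 0.21 in GMPs (edgeR adjusted p = 0.000293) and the vault poly-ADP-ribose polymerase Parp4 by -1.02 ± 0.20 (edgeR adjusted p = 3.86e-05) and -0.89 ± 0.20 (edgeR adjusted p = 0.000198). Zmat2, 2200 bases from Vaultrc5, was -0.37 ± 0.23 in CLPs (edgeR adjusted p = 0.237) and rose by 0.75 ± 0.23 in GMPs (edgeR adjusted p = 0.00656).

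RNA polymerase III, which transcribes most of these RNAs, had more subunits that rose in GMPs than fell. Of 13 subunits of RNA polymerase III, 6 rose and 0 fell in O-WT GMPs against HSCs, and 11 rose against CLPs, while 3 fell in CLPs against HSCs. Of all genes tested, 18.6% were higher in GMPs than in HSCs and 24.1% higher in GMPs than in CLPs. Polr1d, a subunit shared with RNA polymerase I, rose by 0.90 ± 0.21 (edgeR adjusted p = 0.00042) and Polr3k by 0.63 ± 0.20 (edgeR adjusted p = 0.00774) in GMPs, and Polr3gl fell by -1.17 ± 0.25 (edgeR adjusted p = 0.000193) and Polr3d by -0.90 ± 0.22 (edgeR adjusted p = 0.000885) in CLPs. Of 17 of its transcription factors and regulators, 4 rose and 1 fell in GMPs against HSCs, a share near that of all genes, with Bdp1 at 0.82 ± 0.20 (edgeR adjusted p = 0.000748) and Gtf3c4 at 0.78 ± 0.20 (edgeR adjusted p = 0.000896). In CLPs only Snapc4 of the small nuclear RNA activating complex fell (-0.60 ± 0.21, edgeR adjusted p = 0.0242), and the repressor Maf1 had -0.53 ± 0.21 (edgeR adjusted p = 0.0531). Over all lists, 28 of 69 tested proteins of the machines and of RNA polymerase III rose and 5 fell in GMPs against HSCs, where 18.6% of all genes were higher and 20% lower. In CLPs against HSCs 1 rose and 10 fell, a smaller share than among all genes (9.38% higher and 16.7% lower).

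**Figure D2:**
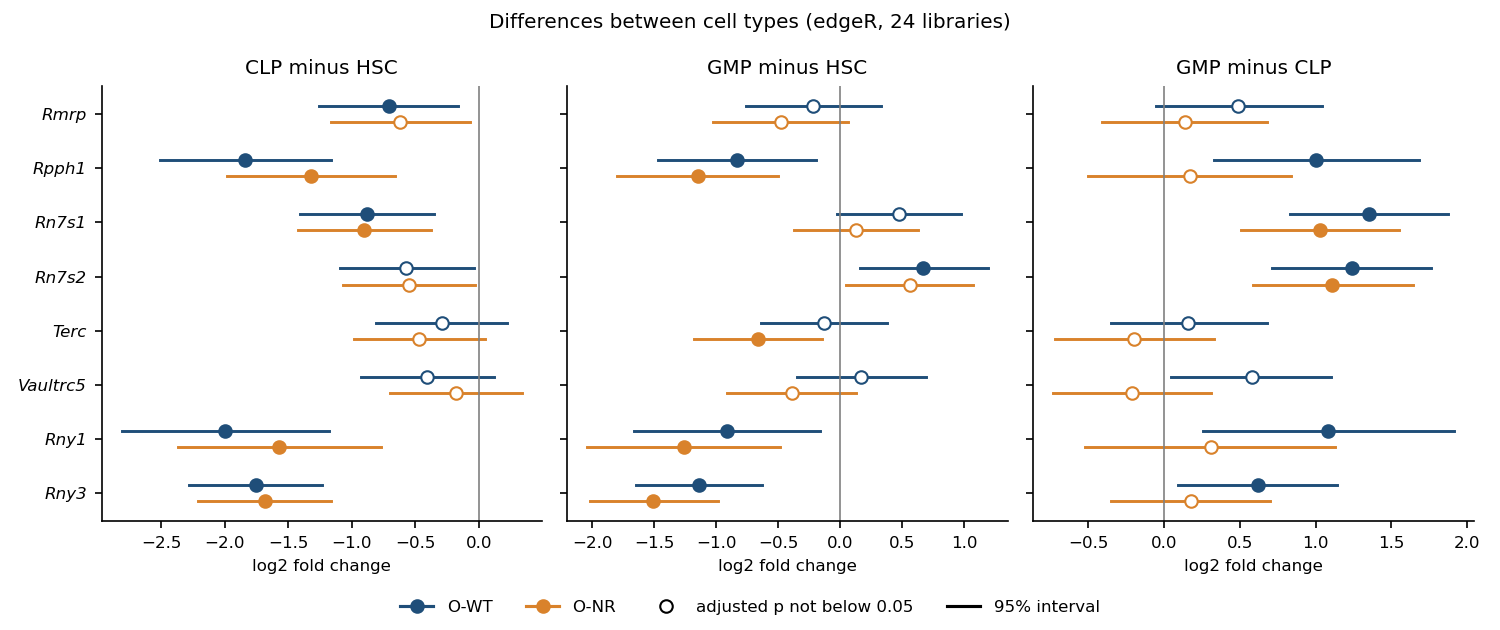
Log2 fold change of each noncoding RNA between cell types in O-WT and O-NR libraries of cohort 2, as edgeR estimates with 95% intervals. The Rny3 differences from HSCs lie at -1.75 and -1.14 in O-WT and at -1.68 and -1.51 in O-NR, while Terc in O-WT lies near 0.

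Ratios of reads within a library, which need no scaling between libraries, showed where the RNAs parted. Rny1 and Rny3 together had 66.6 to 88.7 reads per 100 Vaultrc5 reads in O-WT HSCs and 64.4 to 87.6 in O-NR HSCs. The range was 28.2 to 31.1 in O-WT CLPs and 20.5 to 43.5 in O-NR CLPs, and 22.3 to 47 and 24.9 to 41.2 in GMPs, so no progenitor library reached the HSC range. The HSCs of cohort 1, which held another set of libraries, had 70.4 to 105. The 7SL RNAs had 1.83 to 2.38 reads per 100 Rmrp reads in cohort 2 HSCs and 1.52 to 2.75 in CLPs, which overlapped. GMPs had 2.88 to 4.36, above the other cell types of cohort 2. The HSCs of cohort 1 had 8.19 to 13.5, above the GMPs, so the GMP excess is shown only within cohort 2.

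**Figure D3:**
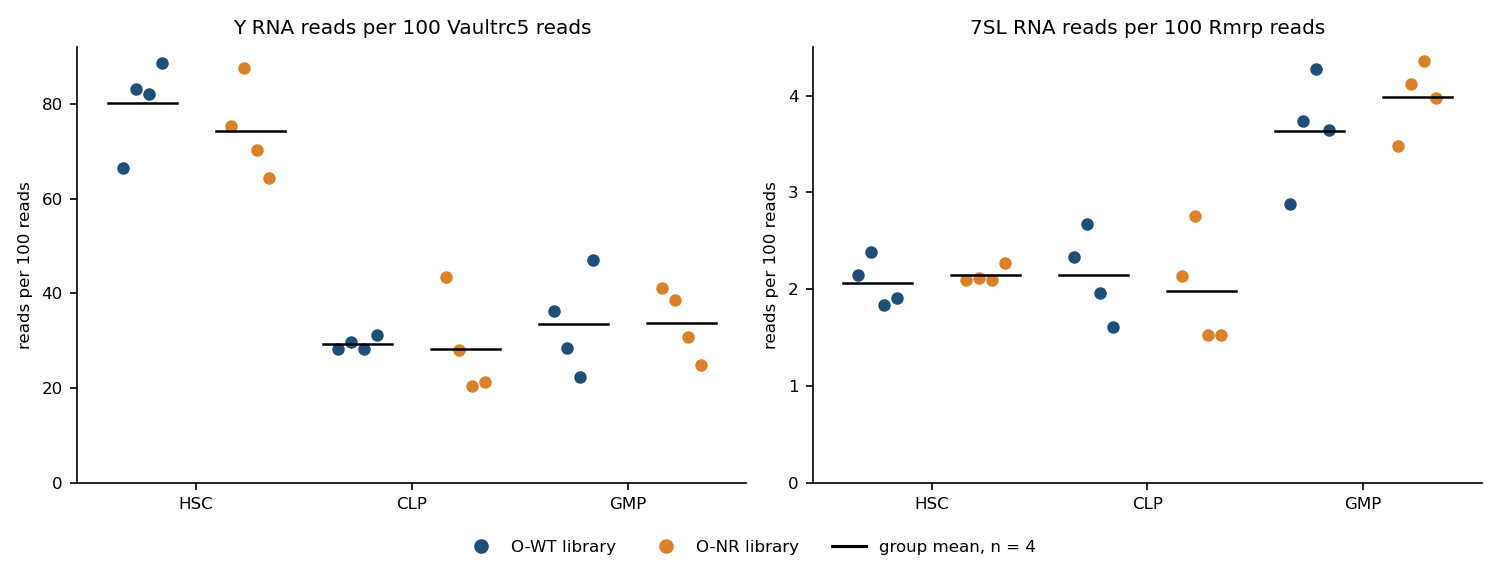
Reads of Rny1 and Rny3 per 100 Vaultrc5 reads (left) and of Rn7s1 and Rn7s2 per 100 Rmrp reads (right) in each cohort 2 library, with O-WT in blue, O-NR in orange and bars at the mean of 4. HSCs stand apart on the left at 64.4 to 88.7 and GMPs on the right at 2.88 to 4.36.

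NR was compared with no treatment in each cell type, with a call at an unadjusted p below 0.01, the p limit of the study. Its further limit on fold change was not applied, so some calls are smaller than it allows. None of the 8 RNAs was called in HSCs (0.777% of all genes called), and 0 had an unadjusted p below 0.05 with edgeR or a call with DESeq2. The 95% intervals of their log2 fold changes lay between -0.78 and 0.67. Rny3 was 0.01 ± 0.13 and Rmrp 0.01 ± 0.16 (edgeR adjusted p = 0.996 for each), both with intervals inside -0.35 to 0.35. The other values were 0.01 ± 0.15 for Rn7s2, 0.17 ± 0.19 for Rn7s1, 0.09 ± 0.16 for Vaultrc5, -0.17 ± 0.28 for Rny1, -0.20 ± 0.23 for Rpph1 and 0.22 ± 0.21 for Terc (edgeR adjusted p = 0.995 to 0.996).

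In CLPs, Rny1 did not pass the filter, and 0 of the other 7 RNAs were called by edgeR or DESeq2 or had an unadjusted p below 0.05 (0.412% of all genes called). Vaultrc5 had 39.6, 26.1, 17.7 and 55.4 CPM in O-WT and 27.7, 38.7, 52.1 and 62.4 CPM in O-NR, which overlapped (log2 fold change 0.34 ± 0.24, edgeR adjusted p = 1). Without the CLP libraries over 4000 CPM of olfactory reads, O-WT replicates 2 and 3 and O-NR replicates 3 and 4, Vaultrc5 changed to -0.57 and was called at that threshold, which the correction did not keep (edgeR adjusted p = 0.497). Rpph1 had the widest interval, -0.71 to 1.27, and O-NR replicate 3 held only 7 of its reads.

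In GMPs the 7 RNAs that passed the filter had negative estimates, from -0.48 to -0.04, where 0.986% of all genes were called and the median of all genes was 0. None of the 7 was called by edgeR or DESeq2. With edgeR 1 had an unadjusted p below 0.05 (651 of all 13486 genes), and with DESeq2 3 had (620 of all genes). Vaultrc5 had 68.9, 43.4, 59.9 and 35.4 CPM in O-WT and 46.9, 36.2, 34.4 and 38.8 CPM in O-NR GMPs, which overlapped. Its log2 fold change was -0.41 ± 0.16 (edgeR adjusted p = 0.997). It was called without a filter (-0.45), with a filter at 1 CPM (-0.43), with the replicate block (-0.38), and without O-WT replicate 2 (-0.51) or 4 (-0.54), where Rmrp was called too (-0.29). Rmrp was otherwise -0.20 ± 0.10 and Rpph1 -0.48 ± 0.23 (edgeR adjusted p = 0.997 for each).

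The NR effect was not shown to differ between cell types for any of the 8 RNAs. For CLPs against HSCs 0 of 8 interaction terms were called (0.403% of all genes), with the smallest p at 0.272 for Rpph1 in edgeR's fit of 24 libraries, and for GMPs against HSCs 0 of 8 (0.146% of all genes), with the smallest at 0.131 for Vaultrc5. DESeq2 called 0 in both, and 0 had an unadjusted p below 0.05 with either tool. Of the 69 tested proteins of the machines, the only call for NR in the 3 cell types was Nop10, a telomerase protein, in CLPs (0.58 ± 0.21, edgeR adjusted p = 1).

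**Figure D4:**
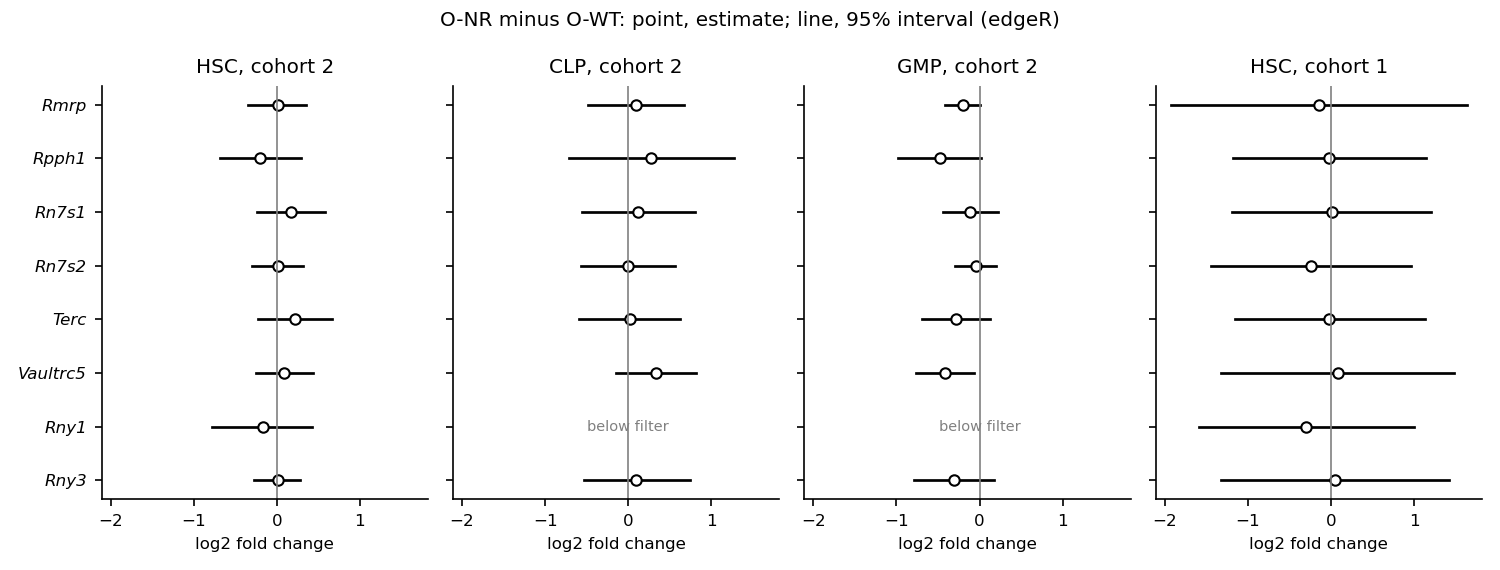
Log2 fold change of O-NR over O-WT for each noncoding RNA in HSCs, CLPs and GMPs of cohort 2 and HSCs of cohort 1, as edgeR estimates (points) with 95% intervals (lines). All intervals include 0 but that of Vaultrc5 in GMPs (-0.76 to -0.07), and those of cohort 1 are the widest.

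Cohort 1 gave HSCs of all 3 treatment groups, and its libraries fell apart in a way their groups do not follow. O-NR replicates 1 and 2 and O-NR-RC replicates 2 and 3 had 14277 to 15260 CPM on olfactory and vomeronasal receptor genes, and the other 5 libraries 4445 to 9082 CPM. Each of the 8 RNAs was lower in every one of these 4 libraries than in the other 5. The share of all genes that split the same way was not counted, so the split is not shown to be particular to these RNAs. Rmrp had 526 and 418 CPM in O-WT, 170, 234, 671 and 628 CPM in O-NR and 1007, 172 and 205 CPM in O-NR-RC. Rny3 had 15.8 and 20.4 CPM in O-WT, 7.85, 8.74, 33.2 and 25.2 CPM in O-NR and 28.8, 5.83 and 8.11 CPM in O-NR-RC. For both RNAs the spread within each treated group was larger than any difference between group means.

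With all 9 libraries, 0 of 8 RNAs were called for O-NR against O-WT (0.048% of all genes), for O-NR-RC against O-NR (0.036%) or for O-NR-RC against O-WT (0.078%) by edgeR, and 0 by DESeq2. Their log2 fold changes lay between -0.55 and 0.12, with edgeR p of 0.41 or more. Another fit dropped O-NR-RC replicate 1, keeping only the O-NR-RC replicates rich in olfactory reads. There the median of the 8 RNAs moved from -0.25 to -1.16 against O-NR and from -0.28 to -1.18 against O-WT, with 0 called. In each contrast 5 had an unadjusted p below 0.05, a count given without that of all genes and not read as a trait of these RNAs. A fit of the O-WT and O-NR HSCs of both cohorts with cohort as a term called 0 of 8 (0.0886% of all genes), with values of -0.21 to 0.13, 0 unadjusted p below 0.05 and 0 calls with DESeq2. O-NR-RC is compared with the same libraries in 2 of these contrasts, so they are not independent.

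Leaving out those 4 libraries, an alternative chosen after the data were seen, changed the result. With 2 O-NR against 2 O-WT libraries, 4 RNAs were higher in O-NR at the unadjusted threshold, of which only Vaultrc5 also passed the correction: Vaultrc5 by 0.69 ± 0.14 (edgeR adjusted p = 0.0464), Rny3 by 0.65 ± 0.18 (edgeR adjusted p = 0.226), Rn7s1 by 0.53 ± 0.15 (edgeR adjusted p = 0.273) and Rpph1 by 0.49 ± 0.16 (edgeR adjusted p = 0.461), where 1.92% of all genes were called. With the single O-NR-RC library left against 2 O-WT, 5 were higher (10.6% of all genes called), on the assumption that the lone library varies like the others. These were Rmrp (0.96), Rpph1 (0.78), Vaultrc5 (0.69), Rn7s1 (0.53) and Rn7s2 (0.48). The O-WT libraries kept 6360 and 9082 CPM of olfactory reads, against 6423 and 5606 CPM in O-NR and 4445 CPM in O-NR-RC. The part of these reads in the 4 and 5 calls was not tested. In the HSCs of cohort 2, no RNA was called with or without the libraries rich in such reads.

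**Figure D5:**
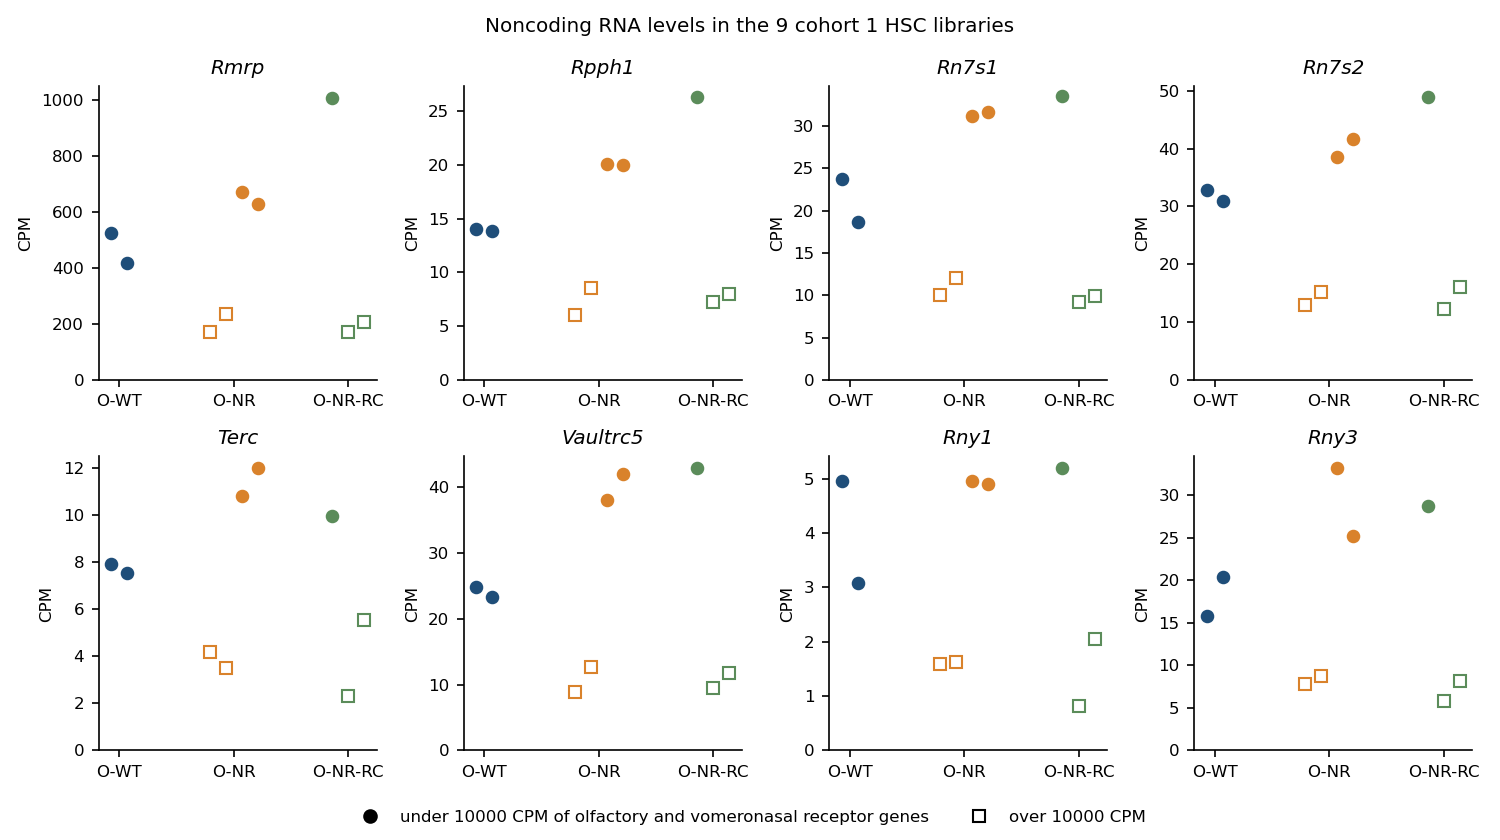
Level of each noncoding RNA in the 9 HSC libraries of cohort 1, in CPM on a linear axis, by group. The O-NR and O-NR-RC libraries split into a lower and an upper set, with Rmrp at 170 to 234 CPM in the 4 lower libraries and at 418 to 1007 CPM in the other 5.

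The cohorts were fitted apart, and their HSC levels differed for some of the RNAs. Rmrp had 170 to 1007 CPM in cohort 1 and 1040 to 2590 CPM in cohort 2 HSCs, without overlap. Rpph1 per 100 Rmrp reads was 2.61 to 4.21 in cohort 1 against 0.414 to 0.743 in cohort 2 HSCs, and the 7SL RNAs per 100 Rmrp reads 8.19 to 13.5 against 1.83 to 2.38. The ratio of Y RNAs to Vaultrc5 overlapped between the cohorts. Cohort cannot be told apart from the preparation and sequencing of each set.

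The genes whose log2 CPM followed each RNA most closely over the 24 libraries of cohort 2 were picked by Pearson's r among 22573 genes, as a description of libraries that share cell types and depth. Rny1 was followed best by Rny3 (0.94), then Gm22270 and Zdhhc17 (0.89 each), and Rny3 by Grina, Gm22362 and Gm25291 (0.95 each). Vaultrc5 was followed by other small RNAs, the U3 gene Rnu3a (0.92), the U11 gene Rnu11 (0.87) and Snora62 (0.86). Rn7s2 followed the ribosomal protein genes Rpl8, Rplp2 and Rpl18 (0.97 each), and Rn7s1 followed Tmed4 (0.96), Celsr1 and Man2c1 (0.95 each). For Rmrp they were Kmt2e, Kdm2a and Mga (0.95 each), for Rpph1 Lemd2 (0.92), Dvl1 and Mkrn1 (0.91 each) and for Terc Gm23245 and Iba57 (0.83 each) and Ankmy2 (0.81). Between pairs of the 8 RNAs r ran from 0.27 (Rn7s2 with Terc) to 0.94. All 8 had a negative r with the log2 olfactory sum, from -0.94 for Rn7s2 to -0.32 for Rny1 and -0.33 for Rny3.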

How the data were processed

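Total RNA of sorted HSCs, CLPs and GMPs was sequenced in 33 libraries. The authors trimmed reads with cutadapt, mapped them to mm10 in STAR using the M22 release of Gencode and tallied reads per gene in featureCounts. Their deposited files hold raw whole-number counts of 55376 symbols per library. Strand setting and treatment of reads with several places are not given in the sources used here.

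Counts were tested with R 4.3.3, edgeR 4.0.16 (quasi-likelihood test after TMM scaling, with limma 3.58.1) and, as an alternative, DESeq2 1.42.0. A gene was tested if it exceeded 3 CPM in a number of libraries no smaller than the smallest group, and Benjamini-Hochberg adjustment ran over all of them. Cell types and interactions were fitted over the 24 cohort 2 libraries and called at an adjusted p below 0.05 and an unadjusted p below 0.01, respectively. NR was fitted per cell type and cohort, after the study, and over the HSCs of both cohorts with a cohort term, and called at an unadjusted p below 0.01. CPM of single genes use the total of counted reads multiplied by the library's TMM factor, set within each cohort. The filter and the sums of marker and olfactory genes use the total without TMM factors. Correlations used log2 CPM with a prior count of 2, and errors are SE for log2 fold changes and SD for levels. Intervals cover 95%. Libraries of a group differed by more than sampling noise. The script was tested on simulated data.

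The 8 RNAs and the gene lists were chosen with earlier results of these data known. The named genes are all 8, in each protein list the 2 genes with the smallest p in GMPs and in CLPs against HSCs of O-WT, the nearest protein-coding gene, and the 3 genes with the highest correlation. Positions and sequences come from Gencode M21 on mm10, where 54510 symbols were found; the sequence of the 7SL genes is not reported here. Alternatives were RLE scaling, scaling without the 8 RNAs and Rn7sk, no filter beyond 1 read, a filter at 1 CPM, DESeq2, the libraries compared alone, a replicate block and each library left out. Olfactory reads as a covariate, and leaving out libraries over 4000 CPM (cohort 2) or 10000 CPM (cohort 1) of such reads, were chosen after seeing the data. File identifiers pair the cell types of 1 treatment and number, taken as 1 mouse, and deviations of such pairs had r of -0.476 to 0.367 (mean -0.026, 24 pairs). O-WT and O-NR of the same number are different mice.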

Additional observations from a re-analysis of the deposited data

How the results depend on the processing

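Rny3 in both progenitors and Rpph1 in CLPs kept their calls against HSCs in both treatments under all 9 other settings and without any single library. Counts of the 8 RNAs called changed as follows. With olfactory receptor reads as a covariate, 3 were called in CLPs against HSCs (6744 of all 22573 genes) and 0 in GMPs against CLPs of O-WT (4586). All calls were lower in GMPs against HSCs, with 4 in O-WT (8405 of all genes) and 6 in O-NR (8997). They were also lower in GMPs against CLPs of O-NR (2, from 2 higher, with 5296 of all genes called). Without the libraries rich in such reads the numbers were 2 in GMPs against CLPs of O-WT, 1 for NR in CLPs, and in cohort 1 4 for O-NR and 5 for O-NR-RC against O-WT. In GMPs against HSCs of O-WT, 2 were called with scaling without the 8 RNAs and Rn7sk (9009 of all 22573 genes). With a filter at 1 CPM 2 were called (8405 of 36759 genes). Fits of only the libraries compared gave 3 in GMPs against CLPs of O-WT and 7 in GMPs against HSCs of O-NR. For NR in GMPs, 1 (Vaultrc5) was called without a filter, with a filter at 1 CPM and with the replicate block. In these fits 366 of 52453, 145 of 23798 and 125 of 13486 genes were called. Leaving out each library gave 3 to 6 calls in CLPs against HSCs, 1 to 4 in GMPs against HSCs and 2 to 7 in GMPs against CLPs of O-WT, and 0 to 2 for NR in GMPs. For these fits and those of only the libraries compared, shares of all genes are not given, so their counts are not read as a trait of these RNAs. The cause of these changes was not tested, except that fewer libraries were fitted where some were left out. The replicate block, with treatment and number together in the fits of 24 libraries, ended the Rpph1 call in GMPs against HSCs of O-WT (-0.74), added that of Vaultrc5 in GMPs against CLPs of O-WT (0.65) and turned Rn7s2 for NR in CLPs to -0.02. For NR the block pairs different mice.

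Estimates changed sign as follows, on the log2 scale. With the covariate, in O-WT, Terc was 0.01 in CLPs against HSCs, Rn7s1 -0.04 and Vaultrc5 -0.24 in GMPs against HSCs, and Rmrp -0.38, Terc -0.50 and Vaultrc5 -0.13 in GMPs against CLPs. In O-NR it gave Vaultrc5 0.19 in CLPs and Rn7s1 -0.10 in GMPs against HSCs, and Rmrp -0.51, Rpph1 -0.43, Rny1 -0.01 and Rny3 -0.30 in GMPs against CLPs. For NR it gave -0.05 for Rmrp, -0.04 for Rn7s2 and -0.04 for Rny3 in HSCs, -0.01 for Rn7s1, -0.25 for Rn7s2 and 0.00 for Terc in CLPs, and 0.01 for Rn7s2 in GMPs. Without the rich libraries, Vaultrc5 was -0.01 in GMPs against HSCs and Terc -0.19 in GMPs against CLPs of O-WT, and Rpph1 was -0.02 and Vaultrc5 0.23 in GMPs against CLPs of O-NR. For NR it left Rmrp at -0.11, Rn7s2 at -0.05, Vaultrc5 at -0.02 and Rny3 at -0.09 in HSCs, and Rmrp at -0.22, Terc at -0.31, Vaultrc5 at -0.57 and Rny3 at -0.35 in CLPs. In GMPs against HSCs of O-WT, Rmrp was 0.02 with RLE scaling and 0.02 with DESeq2, and Terc 0.11, 0.11 and, without a filter, 0.08. Rmrp in GMPs against CLPs of O-NR was 0.00 with only the libraries compared.

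Leaving out each library turned the sign of some values. In O-WT, Terc ranged from -0.53 to 0.00 in CLPs and -0.24 to 0.17 in GMPs against HSCs and from -0.01 to 0.48 in GMPs against CLPs, and Rmrp from -0.29 to 0.04 in GMPs against HSCs. In GMPs against CLPs of O-NR, Rpph1 ranged from -0.03 to 0.57 and Vaultrc5 from -0.27 to 0.11. For NR in HSCs the ranges were -0.12 to 0.15 for Rmrp, -0.07 to 0.16 for Rn7s2, -0.03 to 0.23 for Vaultrc5 and -0.10 to 0.08 for Rny3. In CLPs they were -0.08 to 0.29 for Rmrp, -0.02 to 0.59 for Rpph1, -0.10 to 0.28 for Rn7s1, -0.34 to 0.18 for Rn7s2, -0.14 to 0.23 for Terc and -0.08 to 0.48 for Rny3, and in GMPs -0.21 to 0.05 for Rn7s1 and -0.13 to 0.07 for Rn7s2. Of the remaining estimates without a library left out, 525 kept their direction and side of the threshold, 35 lost and 30 gained a call. Low read numbers limit Rny1 and Rpph1 in CLPs most.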
